A study of Mus musculus with 5 samples.

Results

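The sarcomere and Z-disc genes of the embryonic mouse heart were compared between control and Sox9 mutant atrioventricular canal (AVC), the region between atria and ventricles in which the valves form. They were chosen by symbol from a list of 39 genes, and 38 of these were among the 14697 transcripts of the expression table (Myot, a Z-disc protein gene, was not analysed here). A total of 37 reached 1 nFPKM in WT, cKO or both. The unit nFPKM is fragments per kilobase of transcript, scaled to library size and then normalized further by the authors, so levels can be compared between genes per unit of length. The 38 genes divide into 11 of the thick filament and M-band, 13 of the thin filament and 14 of the Z-disc and its partners.

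Both groups were C57BL/6 embryos at embryonic day 12.5 with floxed Sox9 alleles. The control, labelled WT, was Sox9fl/fl:+/+ and carried no Cre, and the mutant, labelled Sox9 cKO, was Sox9fl/fl:Tie2-Cre/+, so the groups also differ in the presence of Cre. Tie2-Cre acts in endothelium, in cells derived from it such as cushion mesenchyme, and in blood lineages, but not in the cardiomyocyte lineage in which most of the genes described here are made. Per the labels, the dissected AVC holds mesenchyme, endothelium and myocardium, AVCs were pooled after genotyping, and 2 libraries per genotype were made. The libraries of a genotype were merged into 1 value in the table. Neither the spread between replicates nor the read depth is known, so no test was possible, and every difference below is described by its size alone.

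A sarcomere is the contractile unit of striated muscle, in which thick filaments of myosin slide along thin filaments of actin, tropomyosin and troponin. Thin filaments are anchored by α-actinin and its partners at the Z-disc, thick filaments are linked to one another at the M-band, and titin spans from one to the other. Many of these proteins come in isoforms that mark atrial or ventricular, and embryonic or adult, myocardium. The AVC myocardium of the embryo is a slowly conducting segment between both chambers, and a dissection of this region can include adjoining chamber muscle.

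Some other gene groups differed more between the same libraries. Sox9, the deleted gene, had 36.7 nFPKM in WT and 14.7 nFPKM in cKO. Over the 13793 transcripts that reached 1 nFPKM in WT, cKO or both, the median log2 ratio of cKO to WT, computed with a pseudocount of 1 nFPKM, was -0.11, and this median was subtracted from each ratio below to give the relative log2 ratio. Relative log2 ratios were at least 0.32 for all 12 measured erythroid genes (median 1.14) and 9 of 11 epicardial genes (median 0.54). By the same size 10.8% of all transcripts were higher and 9.62% lower. Of the epicardial genes, Tbx18 (-0.17) and Tcf21 (-0.40) stood below the all-transcript median, Tcf21 by this size. Lower by this size were 13 of 16 valve mesenchyme genes (median -0.65), a list that includes the deleted Sox9. Genes of hypoxia and glycolysis were higher by the same size in 13 of 17 cases (median 0.74), and endothelial genes in 7 of 18, with 1 lower (median 0.18). The part of these differences in the results below was not tested. In pooled tissue, fewer cells of a type and less RNA per cell cannot be told apart.

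As a set, the sarcomere genes had a median close to that of all transcripts, and a few members stood apart from the rest. Their median relative log2 ratio was 0.03 over 37 genes, with 21 above and 16 below the all-transcript median, and 21 of the 37 (56.8%) lay within 0.15 of it, against 49.8% of all transcripts. No member reached a 2-fold difference, which 1.51% of all transcripts did. A lower rule of size was also used, a relative log2 ratio of at least 0.32 in either direction, at which the larger value is 125% of the smaller one after centring. It was met by 6 members in the higher direction, namely the α-actin genes Acta1, Acta2 and Actc1 and the genes of titin (Ttn), nebulette (Nebl) and nexilin (Nexn). It was met by 3 members in the lower direction, Tcap, Myh6 and Pdlim3.

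The 6 higher members are 16.2% of the 37, where 10.8% of all transcripts were higher by this rule. The 3 lower members are 8.11% of the 37, where 9.62% of all transcripts were lower by it, so that the lower count is near the background. Most members are abundant, and abundant transcripts varied less. Of the transcripts at 100 nFPKM or more in WT and in cKO, 8.58% were higher and 2.86% lower by the same rule, and all 9 members called were among the 34 members at that level (17.6% higher and 8.82% lower). The median of all 1469 transcripts at that level was 0.06, and that of the 34 members 0.04. The split of calls depends on the centring. Without it 4 members were higher and 6 lower, where 6.83% and 17.2% of all transcripts were, and with ratios centred on other cardiomyocyte genes 3 were higher and 7 lower, where 6.66% and 17.8% of all transcripts were. The lower counts in both settings are near these shares of all transcripts. Shares among abundant transcripts were not computed for either setting, so these counts were not set against transcripts of like level. Acta1, Acta2 and Ttn were higher, and Tcap, Myh6 and Pdlim3 lower, in both settings as well.

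**Figure D1:**
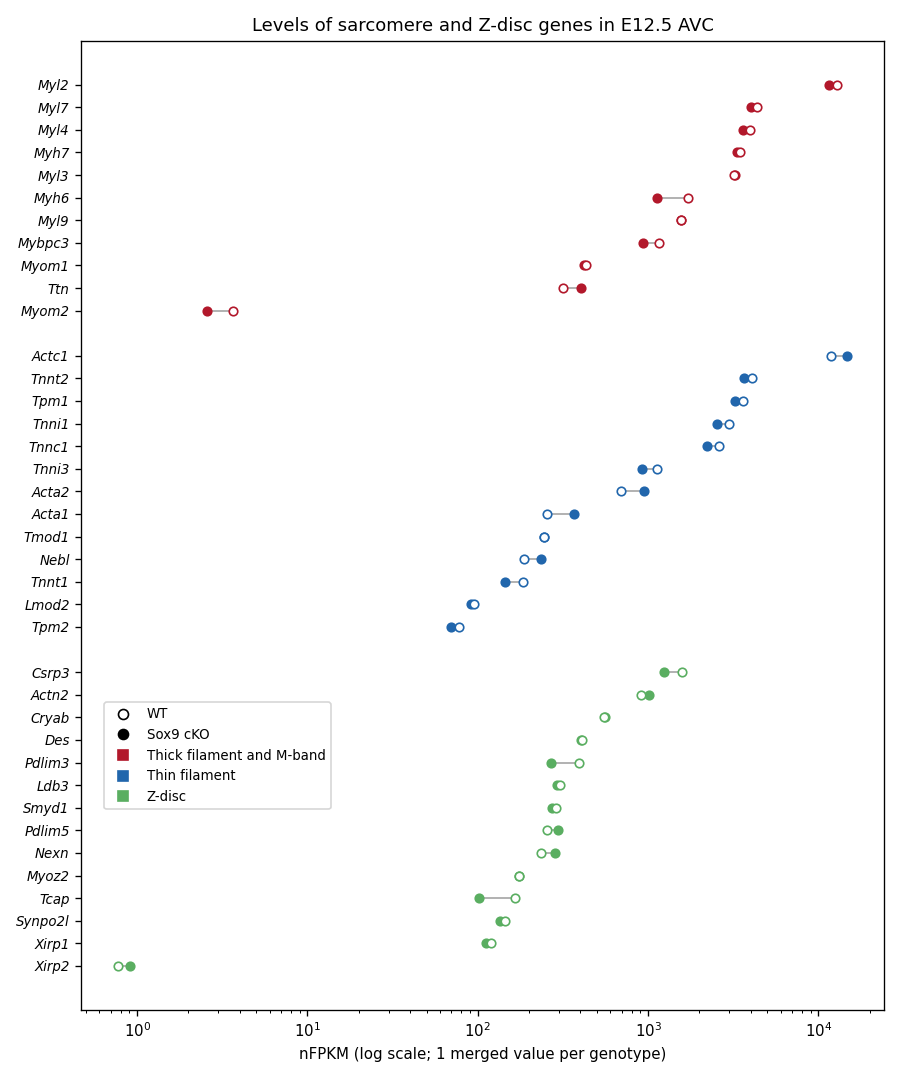
Level of each of the 38 genes in WT (open circles) and Sox9 cKO (filled circles) AVC, in nFPKM on a log axis, ordered by WT level within thick filament, thin filament and Z-disc. Levels run from under 1 nFPKM for Xirp2 to 14777 nFPKM for Actc1, and the 2 circles of most genes nearly coincide.

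Sarcomere genes were among the most abundant transcripts of the AVC in both genotypes. The 38 genes made up 6.91% of the summed nFPKM of WT and 6.75% of that of cKO. With globin genes taken out of the total, the shares were 7.22% and 7.47%, so the direction of this difference depends on whether globins are counted. Myl2 (12815 nFPKM in WT) and Actc1 (11825 nFPKM) had ranks 6 and 7 in the WT table, and Myl7 (4384), Tnnt2 (4047) and Myl4 (3972) followed among the members. Of the 50 most abundant transcripts, 12 were members in WT and 10 in cKO. At the other end, Myom2 and Xirp2 stood below 4 nFPKM in both genotypes.

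Among thick filament genes, Myh6 stood lower and Ttn higher in cKO, and the light chains stood near the all-transcript median. Their median relative log2 ratio was -0.01 over 11 genes. Myh6 encodes the α-myosin heavy chain, which in the mouse embryo is the main heavy chain of atrial muscle. Its transcript (NM_001164171) stood at 1717 nFPKM in WT and 1135 nFPKM in cKO, a relative log2 ratio of -0.49, lower than all but 4.29% of transcripts. Myh7 (NM_080728), the β-myosin heavy chain that predominates in the embryonic ventricle, stood at 3445 and 3314 nFPKM (0.05). On the GRCm38.p6 assembly in RefSeq the 2 genes are neighbours with no protein-coding gene between them. Their relative log2 ratios differed in sign, but before centring both stood lower in cKO (log2 ratios of -0.60 for Myh6 and -0.06 for Myh7). The coding sequences of both are alike, and the assignment of reads shared by both is not stated in the labels or the table.

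The 4 light chains of cardiac myosin had relative log2 ratios between -0.04 and 0.13. Myl2, the ventricular regulatory light chain, stood at 12815 nFPKM in WT and 11594 nFPKM in cKO (-0.04). Its atrial counterpart Myl7 stood at 4384 and 4040 nFPKM (-0.01). The ventricular essential light chain Myl3 stood at 3197 and 3242 nFPKM (0.13), and its atrial counterpart Myl4 at 3972 and 3588 nFPKM (-0.04). Summed over both heavy chains the level was 5162 nFPKM in WT and 4448 nFPKM in cKO (-0.11). The same sum was 17200 and 15634 nFPKM for the regulatory light chains (-0.03) and 7168 and 6830 nFPKM for the essential light chains (0.04). Heavy and light chains thus differed from one another by less than 0.15 in the log2 ratio of their sums. Myl9, a regulatory light chain of smooth muscle and non-muscle myosin, stood at 1560 and 1555 nFPKM (0.10).

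Titin, the spring that positions the thick filament and serves as a scaffold from Z-disc to M-band, had the highest ratio of the thick filament class. Ttn (NM_011652) stood at 314 nFPKM in WT and 405 nFPKM in cKO, a relative log2 ratio of 0.47, higher than 94.4% of transcripts. Mybpc3, the cardiac myosin-binding protein C that sits on the thick filament, stood at 1155 and 927 nFPKM (-0.21). A ratio of 2 genes within a library does not depend on how the libraries were scaled to one another. The ratio of Ttn to Mybpc3 was 0.272 in WT and 0.437 in cKO, and that of Ttn to Myh7 was 0.0913 and 0.122. The M-band gene Myom1 (myomesin 1) stood at 434 and 420 nFPKM (0.06). Myom2, the myomesin of adult muscle, stood at 3.64 and 2.58 nFPKM (-0.27), a level at which the pseudocount matters, and it met the 0.32 rule with a pseudocount of 0.1 (-0.37).

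**Figure D2:**
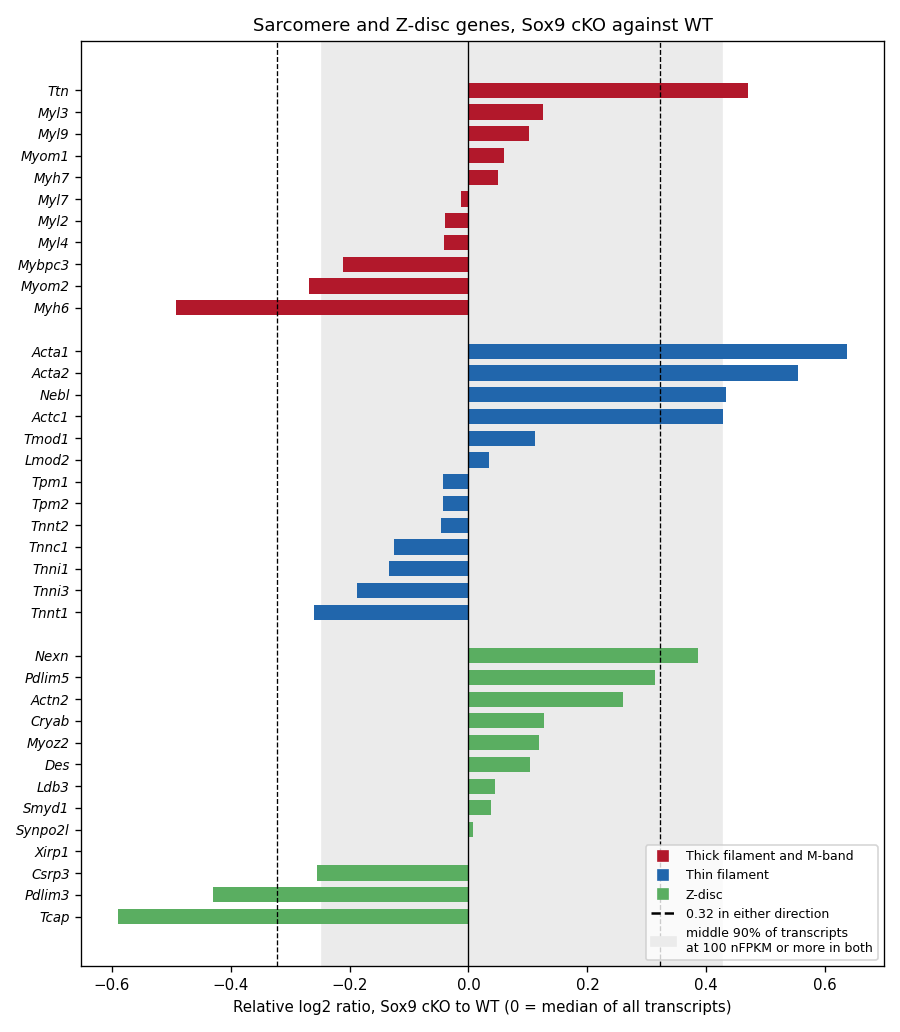
Relative log2 ratio of Sox9 cKO to WT for the 37 genes above the filter, by class, with 0 at the median of all transcripts. Dashed lines mark 0.32 in either direction, and the grey band the middle 90% of transcripts at 100 nFPKM or more in WT and in cKO (-0.25 to 0.43). The 3 α-actin genes, Nebl and Ttn lie at or past the upper edge, Tcap, Myh6 and Pdlim3 lie well below the lower edge, and Myom2, Tnnt1 and Csrp3 just below it.

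The thin filament genes divided into α-actins with nebulette, which stood higher in cKO, and tropomyosins with troponins, which stood at or below the all-transcript median. The class median was -0.04 and the mean 0.10 over 13 genes, which differ in sign because 4 genes stood far above the others. Actc1 encodes cardiac α-actin, the main actin of heart muscle. Its transcript (NM_009608) stood at 11825 nFPKM in WT and 14777 nFPKM in cKO, a relative log2 ratio of 0.43. Acta1 (NM_001272041), skeletal α-actin, which the embryonic heart also makes, stood at 255 and 369 nFPKM (0.64), the highest of all 37. Acta2 (NM_007392), smooth muscle α-actin, which early cardiomyocytes make too, stood at 690 and 941 nFPKM (0.55). All 3 were higher, and their shares of the α-actin sum differed by less than 1 percentage point between genotypes, with Actc1 at 92.6% in WT and 91.9% in cKO. Coding sequences of the α-actins are nearly identical, so reads can be shared between them and single values are uncertain. Their sum stood at 12770 nFPKM in WT and 16088 nFPKM in cKO (0.44). The cytoplasmic actins Actb (2348 and 2440 nFPKM, 0.16) and Actg1 (165 and 176 nFPKM, 0.20), chosen with their values in view, stood closer to the all-transcript median.

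Since the α-actins stood higher together, the 250 bases before their start sites are shown with Myh6, which stood lower, as a counterpart. They were taken from RefSeq on GRCm38.p6, minus strand, and are written 5′ to 3′. The windows are chr2:114052876-114053125 (Actc1), chr8:123894776-123895025 (Acta1), chr19:34255374-34255623 (Acta2) and chr14:54966608-54966857 (Myh6). Capitals mark a CArG box, the site bound by serum response factor, or a MEF2 motif. Both were searched on both strands as exact patterns, CCWWWWWWGG and YTAWWWWTAR (W is A or T, Y is C or T, R is A or G).
Actc1: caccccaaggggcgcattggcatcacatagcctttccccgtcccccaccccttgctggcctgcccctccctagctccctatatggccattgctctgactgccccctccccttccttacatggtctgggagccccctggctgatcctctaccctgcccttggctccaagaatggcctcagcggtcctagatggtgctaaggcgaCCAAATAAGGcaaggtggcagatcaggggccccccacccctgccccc
Acta1: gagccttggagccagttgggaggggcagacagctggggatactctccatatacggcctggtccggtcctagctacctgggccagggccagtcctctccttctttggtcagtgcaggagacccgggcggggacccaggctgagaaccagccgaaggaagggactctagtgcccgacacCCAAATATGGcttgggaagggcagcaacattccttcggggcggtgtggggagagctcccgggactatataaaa
Acta2: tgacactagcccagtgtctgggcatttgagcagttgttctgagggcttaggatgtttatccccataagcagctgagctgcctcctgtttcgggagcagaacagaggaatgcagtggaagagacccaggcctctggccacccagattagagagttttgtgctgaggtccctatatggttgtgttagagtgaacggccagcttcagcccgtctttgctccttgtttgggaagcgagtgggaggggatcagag
Myh6: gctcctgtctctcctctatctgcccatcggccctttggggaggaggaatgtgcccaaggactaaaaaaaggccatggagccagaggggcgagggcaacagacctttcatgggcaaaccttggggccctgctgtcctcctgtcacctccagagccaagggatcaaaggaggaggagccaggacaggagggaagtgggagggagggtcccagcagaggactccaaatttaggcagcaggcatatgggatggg
A CArG box began 47 bases before the start site of Actc1 (CCAAATAAGG) and 73 bases before that of Acta1 (CCAAATATGG). The windows of Acta2 and Myh6 held no exact match to either pattern, which says only that these letters are not in these windows. Sequences that differ in a single letter, such as ccctatatgg in the windows of Actc1 and Acta2, were not marked or counted. Whether serum response factor binds in the windows of Acta2 and Myh6 was therefore not tested.

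Promoter windows were matched by symbol for 33 of the 39 listed genes, 44 windows in all, since some genes have several start sites. A CArG box was present in 9 of the 44 windows (20.5%), and in 1.47% of all 32851 windows of the same length. The genes with one were Acta1, Actc1, Ldb3, Myl3, Myl7, Myl9, Myom1 and Nebl. Among them Acta1, Actc1 and Nebl were called higher in cKO and the other 5 were not called. A CArG box was thus found in genes that stood apart and in genes that did not. Nebl has 4 windows, of which 1 holds a CArG box, and whether that window belongs to the measured transcript was not checked. A MEF2 motif was present in 6 windows (13.6%, against 2.92% of all), those of Mybpc3, Myoz2, Synpo2l, Ttn and Xirp2. The motif CATTCC, on either strand, which TEAD factors bind, was present in 12 windows (27.3%, against 12.6%), and TATAAA in 5 (11.4%, against 12.4%). Windows of one gene can overlap, and these shares are descriptions of the letters.

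Tropomyosins and troponins, which regulate the access of myosin to actin, stood at or below the all-transcript median without meeting the rule of size. Tpm1, the main tropomyosin of the heart, stood at 3605 nFPKM in WT and 3252 nFPKM in cKO (-0.04), and Tpm2 at 77.2 and 69.5 nFPKM (-0.04). The relative log2 ratio was -0.05 for Tnnt2 (cardiac troponin T, 4047 and 3642 nFPKM), -0.12 for Tnnc1 (troponin C, 2600 and 2216 nFPKM), -0.13 for Tnni1 (2989 and 2533 nFPKM), -0.19 for Tnni3 (1130 and 922 nFPKM) and -0.26 for Tnnt1 (185 and 144 nFPKM). All 7 genes were thus below the median, by small amounts. Tnnt1 and Tnni3 are adjacent protein-coding genes on the GRCm38.p6 assembly, and they had the lowest ratios of the 7. The ratio of Actc1 to Tpm1 within a library was 3.28 in WT and 4.54 in cKO, and that of Actc1 to Tnnt2 was 2.92 and 4.06. Actin therefore differed from its regulatory partners by 0.47 on the log2 scale in both ratios, whatever the scaling of the libraries.

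Genes that set the length of the thin filament or tie it to the Z-disc did not move as one. Nebl, which encodes nebulette, a cardiac relative of nebulin that runs from the Z-disc along the thin filament, stood at 187 nFPKM in WT and 235 nFPKM in cKO (0.43). Tmod1, which caps the pointed end, stood at 245 and 246 nFPKM (0.11), and Lmod2, which lets that end grow, at 95.6 and 90.9 nFPKM (0.03). The ratio of Nebl to Lmod2 was 1.96 in WT and 2.59 in cKO.

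Z-disc genes differed in both directions, with the nexilin gene higher and the telethonin gene and Pdlim3 lower in cKO. The median relative log2 ratio was 0.04 over 13 genes, 10 of them above the all-transcript median. Tcap encodes telethonin, which caps the titin ends in the Z-disc. Its transcript (NM_011540) stood at 165 nFPKM in WT and 101 nFPKM in cKO, a relative log2 ratio of -0.59, the lowest of all 37 and lower than all but 2.79% of transcripts. Its binding partner titin went the other way, and the ratio of Ttn to Tcap was 1.91 in WT and 4.00 in cKO. Pdlim3 (NM_016798), an α-actinin-binding PDZ and LIM domain protein, stood at 392 and 270 nFPKM (-0.43), while its relative Pdlim5 stood at 256 and 296 nFPKM (0.31), just under the rule of size. The ratio of Pdlim5 to Pdlim3 was 0.653 in WT and 1.09 in cKO, so their order was exchanged.

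The core cross-linker Actn2 (α-actinin 2) stood at 905 nFPKM in WT and 1007 nFPKM in cKO (0.26). Csrp3, muscle LIM protein, the most abundant of the class in WT, stood at 1589 and 1238 nFPKM (-0.25), and the ratio of Actn2 to Csrp3 was 0.570 in WT and 0.814 in cKO. Nexn (NM_199465), which encodes the actin-binding protein nexilin, stood at 234 and 284 nFPKM (0.39). The other Z-disc genes lay between 0.00 and 0.13. They were Cryab, a small heat shock protein gene (548 and 556 nFPKM, 0.13), Myoz2, calsarcin 1 (174 and 175 nFPKM, 0.12), Des, desmin of the intermediate filaments (406 and 406 nFPKM, 0.10), and Ldb3, an α-actinin-binding protein gene (305 and 293 nFPKM, 0.04). Smyd1, a muscle methyltransferase gene (287 and 274 nFPKM, 0.04), Synpo2l (145 and 135 nFPKM, 0.01) and Xirp1 (120 and 111 nFPKM, 0.00) completed them. Xirp2 was below the filter, at 0.77 nFPKM in WT and 0.91 nFPKM in cKO.

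The comparison of atrial with ventricular isoforms gave a difference for the heavy chain and hardly any for the light chains. Myh6 made up 33.3% of the heavy chain sum in WT and 25.5% in cKO, a difference of -7.76 percentage points. The atrial Myl7 made up 25.5% of the regulatory light chain sum in WT and 25.8% in cKO. The atrial Myl4 made up 55.4% of the essential light chain sum in WT and 52.5% in cKO. The log2 ratio of Myh6 to Myh7 differed by -0.54 between cKO and WT, that of Myl4 to Myl3 by -0.17, and the linear ratio of Myl7 to Myl2 stood at 0.342 in WT and 0.349 in cKO. Troponin I, which is switched from the slow skeletal isoform Tnni1 to the cardiac isoform Tnni3 as the heart matures, had 72.6% Tnni1 in WT and 73.3% in cKO. Tnnt1 made up 4.38% and 3.79% of the troponin T sum, and Tpm2 2.10% and 2.09% of the tropomyosin sum.

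**Figure D3:**
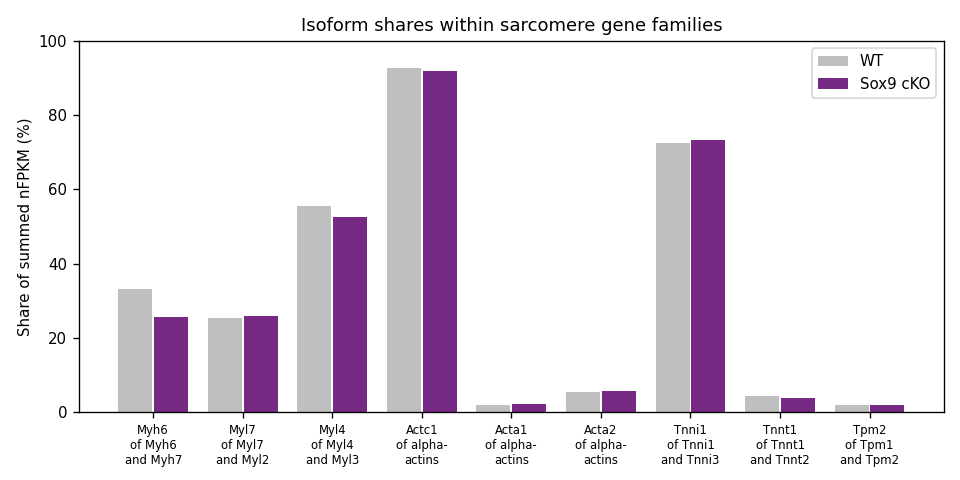
Share of 1 isoform in the summed nFPKM of its family, in percent, for WT (grey) and Sox9 cKO (purple), 1 merged value each and no error bars. The share of Myh6 in the heavy chains goes from 33.3% to 25.5%, and the other shares differ by less than 3 percentage points.

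Atrial genes outside the sarcomere stood mostly lower in cKO, as Myh6 did, and ventricular ones mostly higher. Of 13 atrial genes, 11 were below the all-transcript median (median -0.31). By the 0.32 rule 6 were lower and 2 higher, where 9.62% and 10.8% of all transcripts were. Examples are Nr2f1, a nuclear receptor of atrial muscle that endothelium and mesenchyme can also make (17.9 and 6.11 nFPKM, -1.30), Stard10 (45.5 and 24.3 nFPKM, -0.77) and Sln, sarcolipin, a regulator of the calcium pump in atrial muscle (31.5 and 17.3 nFPKM, -0.72). The 2 higher genes were Nppa, which AVC myocardium lacks and chamber myocardium makes (2672 and 3361 nFPKM, 0.44), and Fgf12 (2.33 and 3.32 nFPKM, 0.48). Of 11 ventricular genes, 9 were above the median and 5 were higher by the 0.32 rule (median 0.22), against 10.8% of all transcripts. Of the 11, 2 genes, Fhl2 and Hspb7, are in the list of other sarcomere genes too. Pln and Gja1 of this list, and Tbx5 of the atrial list, are also in the list of cardiomyocyte genes outside the sarcomere. The counts of these lists are therefore not separate. Nppb (275 and 805 nFPKM, 1.65), Irx5 (11.8 and 17.6 nFPKM, 0.65) and Hey2 (85.9 and 121 nFPKM, 0.59) stood furthest. Beside these, the median was -0.04 for the 3 atrial isoforms of the sarcomere and 0.05 for the 3 ventricular ones. How much atrial and ventricular muscle each pool held was not measured, and its part in the value of Myh6 was not tested.

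**Figure D4:**
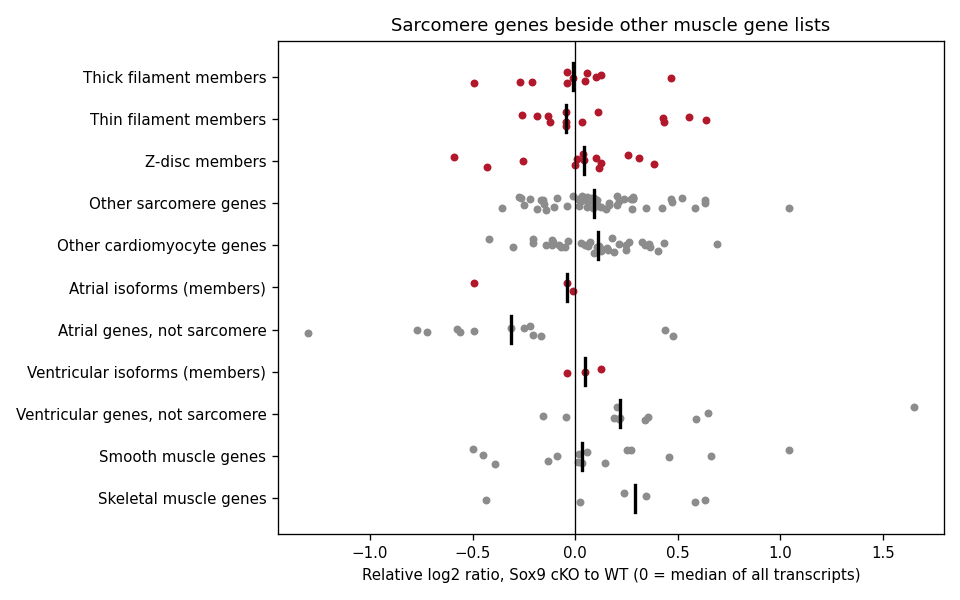
Relative log2 ratio of Sox9 cKO to WT for each gene (points, spread vertically for sight only) with the median of each list (black bars). Members are in red and other lists in grey. Atrial genes outside the sarcomere lie mostly left of 0 and ventricular ones mostly right of it, while the 3 classes of sarcomere genes are centred near 0.

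Other genes of the sarcomere, listed apart from the 39, had a median near that of all transcripts. The list also holds relatives from non-muscle cells, such as Myl6. Of 50 genes above the filter, 36 had ratios above 0. By the 0.32 rule 9 of the 50 were higher, a larger share than the 10.8% of all transcripts. The median was 0.09, and it turned to -0.016 without centring and to -0.023 with centring on other cardiomyocyte genes. The single gene lower by that rule was Unc45b, which encodes a chaperone of myosin (204 and 148 nFPKM, -0.36). Of all transcripts, 9.62% were lower by it. Myl1, an essential light chain of fast skeletal muscle that the embryonic heart also makes, stood at 101 and 146 nFPKM (0.63), and Myl6, the non-muscle essential light chain, at 70.1 and 101 nFPKM (0.63). The largest ratio was that of Lmod1, the leiomodin of smooth muscle, at 1.36 and 3.51 nFPKM (1.04), a low level at which the ratio depends on the pseudocount. Ankrd1, a titin-binding stress-responsive protein gene chosen with its value in view, stood at 958 and 1278 nFPKM (0.52).

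Genes of other muscle types were measured because several members are not confined to cardiomyocytes. Lmod1 of the smooth muscle list, and Myl1, Mylpf and Neb of the skeletal muscle list, are also in the list of other sarcomere genes. For smooth muscle, 15 of 16 genes passed the filter, with a median of 0.03. By the 0.32 rule 3 were higher and 3 lower, where 10.8% and 9.62% of all transcripts were. The summed level of all 16 was 1503 nFPKM in WT and 1579 nFPKM in cKO. Tagln, an actin-binding protein of smooth muscle and of early cardiomyocytes, stood at 320 and 410 nFPKM (0.46), and the ratio of Acta2 to Tagln was 2.15 in WT and 2.30 in cKO. Cnn1, calponin, stood at 213 and 201 nFPKM (0.02), and Myh11, the smooth muscle myosin heavy chain, at 2.80 and 1.51 nFPKM (-0.50). The other higher genes of the list were Actg2, smooth muscle γ-actin, at 3.15 and 5.11 nFPKM (0.66), and Lmod1 (1.04). The other lower ones were Mylk (8.11 and 5.20 nFPKM, -0.45) and Itga8 (34.5 and 24.1 nFPKM, -0.39), so smooth muscle genes differed in both directions. For skeletal muscle, 9 of 18 listed genes were in the table and 6 passed the filter, with a median of 0.29 and summed levels of 179 and 227 nFPKM, most of it from Myl1. By the 0.32 rule 3 were higher, namely Myl1 (0.63), Actn3 (1.77 and 2.85 nFPKM, 0.58) and Mylpf (15.1 and 17.98 nFPKM, 0.35), and Myh8 was lower (1.27 and 0.56 nFPKM, -0.43). Of all transcripts, 10.8% were higher and 9.62% lower by it. Lmod1, Actg2, Myh11, Actn3 and Myh8 stood at low levels at which the ratio depends on the pseudocount. With a pseudocount of 5 the ratio was 0.39 for Actg2, and 0.28 for Mylpf, under the rule. The skeletal regulator Myog stood at 0.26 and 0.71 nFPKM and the embryonic heavy chain Myh3 at 0.37 and 0.72 nFPKM. Tnni2, fast skeletal troponin I, stood at 47.2 and 44.5 nFPKM (0.02). The part of other muscle cells in the values of Acta1 and Acta2 was not tested.

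The log2 fold change given for each transcript in the authors' deposited table, cKO over WT, was 0.64 for Acta1, 0.56 for Acta2, 0.47 for Ttn, 0.44 for Nebl, 0.43 for Actc1 and 0.39 for Nexn, and -0.59 for Tcap, -0.49 for Myh6 and -0.43 for Pdlim3. For Myom2 the authors' deposited table has -0.32, at the rule of size.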

How the data were processed

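RNA was measured in AVC of 2 genotypes at embryonic day 12.5, with 1 merged value each. The authors deposited FPKM values with a further normalization (nFPKM), per the file headers; how it was done is not stated there. The authors also deposited a log2 fold change, cKO over WT. TopHat2, Cufflinks, edgeR and mm9 are named, without roles, per the submitters' processing notes. Depth cannot be recovered, so no interval is given.

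The ratio log2((cKO + 1)/(WT + 1)) was computed for 13793 transcripts that reached 1 nFPKM in WT, cKO or both and centred on its median (904 were removed). Calls were made by size, a relative log2 ratio of 0.32 or of 1, with no p-value. Isoform shares and ratios within a library used nFPKM directly. Members given in full were those past 0.32, the isoform pairs and the 5 most abundant, and of each other list up to 3 genes with the largest ratio and at least 3 nFPKM. A gene that this rule names is not reported here. Other genes named for their values were chosen after these were seen. The members and lists were chosen with earlier results of these data known. Motifs were searched in RefSeq promoter windows (GRCm38.p6). Peak lists were not used here. The centring and the 2-fold calls were tested on simulated data. The 0.32 rule, the shares, the ratios within a library and the motif search were not. Python 3.11.15, numpy 2.4.6, pandas 2.3.3 and matplotlib 3.10.9 were used. Alternatives changed the pseudocount, the filter, the centring, the source of the ratio and the handling of transcripts.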

Additional observations from a re-analysis of the deposited data

How the results depend on the processing

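No paired analysis was possible because the table holds 1 merged value per genotype, so no replicate could be left out either. With no replicate error, a log2 value was taken as moved past 0.1, a share past 1 percentage point and a count past 1.5 times. Pseudocounts of 0.1 and 5, no filter, a filter of 10 nFPKM, scaling to the total without globins, the authors' deposited log2 fold change and sums over transcripts moved no summary, and all kept the same 6 genes higher and the same 3 lower at the 0.32 rule, with Myom2 added to the lower ones by a pseudocount of 0.1 and by the authors' deposited values. No member reached 2-fold under any of the 9 alternatives. Without centring, which lowers every value by 0.11, the lower calls numbered 6 (against 17.2% of all transcripts), and the medians were -0.072 for all members, -0.12 for the thick filament, -0.15 for the thin filament, -0.061 for the Z-disc, -0.15 for the atrial and -0.056 for the ventricular isoforms and -0.016 for other sarcomere genes. Centred on other cardiomyocyte genes, calls were 3 higher and 7 lower (against 6.66% and 17.8% of all transcripts), and the same medians were -0.0785, -0.12, -0.16, -0.068, -0.15, -0.063 and -0.023. Without the members that smooth muscle also makes the median was 0.02. No called gene changed sign. The share of members in the total changed by -0.16 percentage points with globins and 0.25 points without. Unknown depth and the merging of libraries limit all values, and most for Myom2, Xirp2 and Lmod1.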

Other observations

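Cardiomyocyte genes outside the sarcomere stood slightly above the all-transcript median. All 36 listed genes passed the filter, with a median relative log2 ratio of 0.11 and 24 above the all-transcript median. By the 0.32 rule 7 were higher and 1 lower, where 10.8% and 9.62% of all transcripts were. Genes of calcium handling differed in direction by small amounts. Atp2a2, the calcium pump of the sarcoplasmic reticulum, stood at 1145 nFPKM in WT and 987 nFPKM in cKO (-0.11), and its inhibitor Pln at 669 and 709 nFPKM (0.19). Casq2, which stores calcium, stood at 156 and 125 nFPKM (-0.21), Ryr2, the release channel, at 106 and 101 nFPKM (0.05), and Slc8a1, the sodium-calcium exchanger, at 441 and 487 nFPKM (0.25). Srl, sarcalumenin, stood at 293 and 368 nFPKM (0.43). Sgca, which encodes a sarcoglycan of the muscle membrane, stood at 12.6 and 19.4 nFPKM (0.69).

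Regulators that act through the CArG box and the MEF2 motif were read after the values of the members were seen. Srf, which encodes serum response factor, stood at 76.1 nFPKM in WT and 65.6 nFPKM in cKO (-0.11), its cofactor gene Myocd at 59.7 and 61.4 nFPKM (0.15), and Mef2c at 59.5 and 71.5 nFPKM (0.37).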
